A study of Bos taurus with 30 samples.

Results

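A set of 9 genes of the type I interferon response (LY6E, ISG15, MX1, MX2, IFI6, RSAD2, IRF9, IFNAR1 and IFNAR2) was followed through the elongated bovine conceptus. They were taken by their Entrez gene IDs, and all 9 were present among the 35092 genes counted. The data were 30 poly(A)-selected RNA libraries from pieces of the embryonic disc (ED) and the extra-embryonic membranes (EEM) of 17 bovine embryos recovered on day 15. In vitro produced (IVP) embryos came from slaughterhouse oocytes, were cultured without serum and were placed in recipient cows on day 7. In vivo (IVV) embryos came from superovulated donors after artificial insemination. The paper reports that IVP embryos were shorter than IVV embryos. Embryos in which no disc was found, a larger share of the IVP embryos, were discarded. The labels give no length, so elongation and procedure cannot be told apart. ED libraries came from 7 IVP and 9 IVV embryos, EEM libraries from 6 IVP and 8 IVV, and 13 embryos (5 IVP, 8 IVV) contributed both. Several embryos were flushed from each cow and the labels do not tie an embryo to its dam, so that procedure and cow cannot be told apart, and p-values describe the spread between embryos rather than between cows. Libraries held 48713218 to 63037371 counts.

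Type I interferons, including the interferon tau that ruminant trophoblast secretes before implantation, bind a receptor made of the IFNAR1 and IFNAR2 chains. The kinases JAK1 and TYK2 then phosphorylate transcription factors of the STAT family, which join IRF9 and turn on interferon-stimulated genes such as ISG15, MX1, MX2, IFI6 and RSAD2. In ruminants this response is best known from the maternal endometrium, where interferon tau from the conceptus prepares the uterus for pregnancy, and the libraries here were made from the conceptus itself.

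The conceptus carried abundant interferon tau RNA and RNA for the signal transducers, but only traces of the second receptor chain and of 4 of the classical target genes. IFNAR2, ISG15, MX2, IFI6 and RSAD2 stayed at 25 counts or fewer in each of the 30 libraries. MX1 was low but present in every library, and LY6E, IRF9 and IFNAR1 were readily counted. Among these 4 countable members, LY6E and IRF9 passed the test between IVP and IVV embryos in the EEM, where 3.81% of all genes tested did. Neither call held with XIST as a covariate, and that of IRF9 was lost under 4 of 15 alternatives. LY6E passed the test in the opposite direction in the ED, where 6.34% of genes did, although that call did not hold under many of the alternatives tried.

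Interferon tau was represented by 4 genes that are near-identical copies (IFNT3, IFNT2, IFN-tau-c1 and IFN-TAU), whose reads may be exchanged between copies and were therefore summed. Values are given as CPM, counts relative to library size after scaling with TMM factors. In the ED the sum was 1376 ± 720 CPM in IVP embryos (SD, n = 7) and 1478 ± 341 CPM in IVV embryos (n = 9). In the EEM it was 2287 ± 1771 CPM in IVP (n = 6) and 2535 ± 970 CPM in IVV (n = 8). The spread within each group exceeded the difference between procedures. None of the 4 copies, tested one by one, was called between IVP and IVV in either tissue (adjusted p from 0.486 to 0.999 by the quasi-likelihood test of edgeR, adjusted by Benjamini-Hochberg over all genes tested). Between the tissues of the same embryo, IFNT2, IFNT3 and IFN-tau-c1 were called lower in the ED (log2 fold change -0.78, -0.58 and -0.48, adjusted p = 0.0140, 0.0194 and 0.0437) and IFN-TAU was not called (0.53, adjusted p = 0.0967). Values of single copies are uncertain because reads may be shared, and with library totals in place of TMM IFNT3 lost its call (-0.39, adjusted p = 0.0624). All adjusted p-values of fold changes below are from this test unless another tool is named.

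IFNAR1 (Entrez 282257), the receptor chain that recruits TYK2, ran from 66 to 748 counts per library. In the ED it averaged 9.38 ± 2.67 CPM in IVP embryos (lowest 5.11, median 9.56, highest 12.01) and 6.55 ± 2.65 CPM in IVV embryos (1.80, 6.95 and 9.11). In the EEM it averaged 7.92 ± 1.53 CPM in IVP (6.08, 7.79 and 10.1) and 5.59 ± 2.59 CPM in IVV (1.41, 6.43 and 8.36). The groups overlapped in both tissues, and the low end of the IVV range was set by embryos VE19, VE28 and VE29 in each tissue. IFNAR1 did not pass the test in the ED (log2 fold change of IVP over IVV 0.50, SE 0.24, adjusted p = 0.277) or in the EEM (0.55, SE 0.22, adjusted p = 0.209). The EEM value rested in part on VE19, without which it was 0.28 (adjusted p = 0.952). IFNAR1 also did not pass between ED and EEM (0.17, SE 0.12, adjusted p = 0.325, and 0.35 with library totals, adjusted p = 0.0710).

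IFNAR2 (Entrez 282258), the chain that binds JAK1 and is also needed for signaling, was barely detected, with 21 counts in all 30 libraries together. It was at 0 in 21 libraries and at 3 counts or fewer in 29. The floor was set at 3 counts, and a group whose libraries were all at or below it was called at the floor. This equals 0.0442 to 0.0694 CPM depending on the library, and covers counting error only. IFNAR2 was at the floor in the ED of both procedures and in the EEM of IVP embryos, where all 6 libraries held 0. In the EEM of IVV embryos it reached 2 counts in VE29 and VE5 and 5 counts in VE4. No difference in IFNAR2 between IVP and IVV embryos was detected at this depth.

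Downstream of the receptor, JAK1, TYK2 and STAT2 were each counted in every library, with at least 234 counts. Their group means ran from 36.3 to 45.0 CPM for JAK1, from 9.05 to 11.8 for TYK2 and from 15.3 to 19.6 for STAT2. None of these 3 genes passed the test between procedures in either tissue, between tissues, or for the interaction of tissue and procedure. Of 11 receptor and JAK-STAT genes listed beside the members, 0 were called between IVP and IVV in the ED and 0 in the EEM. For comparison, 6.34% of all genes tested in the ED and 3.81% in the EEM were called, with an adjusted p under 0.05. STAT3, a transducer of cytokine signals, was the 1 gene of that list that differed between tissues, higher in the ED (log2 fold change 1.15, SE 0.25, adjusted p = 0.00249).

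IRF9 (Entrez 509855), the DNA-binding partner of STAT2, was higher in IVP embryos in the EEM. There it measured 3.55, 2.89, 6.90, 5.25, 4.89 and 3.43 CPM in the 6 IVP embryos, a mean of 4.48 ± 1.49 CPM. The 8 IVV embryos had a lowest value of 1.29, a median of 1.74 and a highest value of 3.91 CPM, with a mean of 2.15 ± 1.03 CPM. Of the IVV embryos, 6 lay below all IVP embryos, and VE19 (3.65) and VE28 (3.91) lay among them. The log2 fold change was 1.23 (SE 0.29, adjusted p = 0.0124), a ratio of means of 2.08. The call held with each embryo left out in turn (highest adjusted p = 0.0487, without IVP14). It was lost under 4 of 15 alternatives, in which the log2 fold change ran from 1.05 to 1.51. They were the fit without a surrogate variable (1.05, adjusted p = 0.0834), the summed hypoblast markers as a covariate (1.14, adjusted p = 0.0606), and both settings on XIST (1.42 and 1.51, adjusted p = 0.185 and 0.162).

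In the ED, IRF9 had a lowest, median and highest value of 1.43, 2.98 and 6.17 CPM in IVP embryos and of 1.12, 1.76 and 3.61 CPM in IVV embryos. The ranges overlapped, and 3 of 7 IVP embryos lay above every IVV embryo. The means were 3.52 ± 1.60 and 1.92 ± 0.80 CPM, and the log2 fold change of 0.99 (SE 0.30) just missed the threshold in edgeR (adjusted p = 0.0510). It passed in DESeq2 (adjusted p = 0.00669), and the range over all alternatives ran up to 0.507. The difference between procedures was not shown to differ between tissues (interaction -0.14, SE 0.29, adjusted p = 0.957), nor was IRF9 called between the tissues (-0.13, SE 0.14, adjusted p = 0.525).

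**Figure D1:**
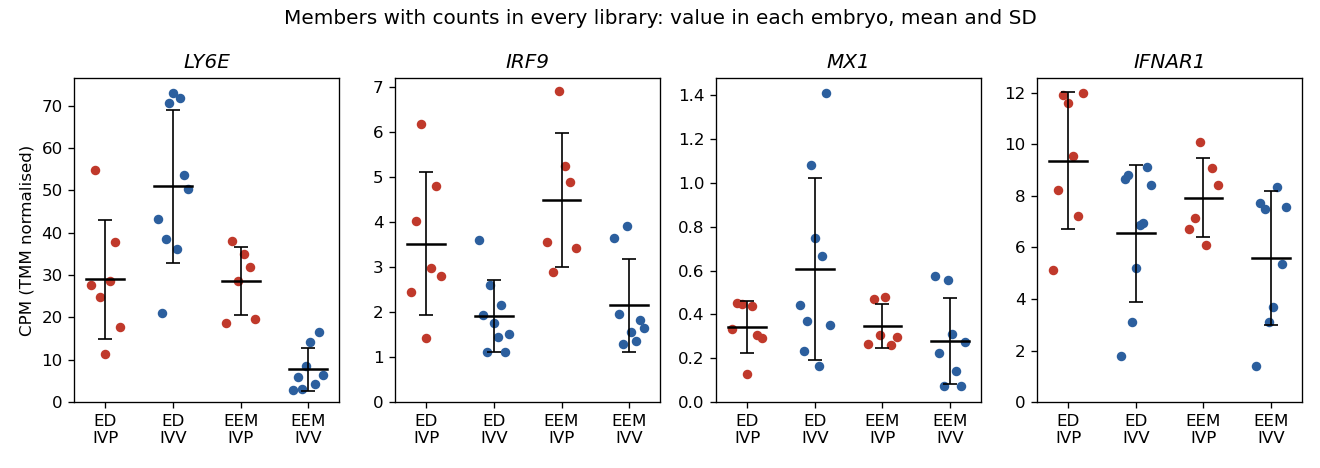
CPM (linear axis) of the 4 members counted in every library, for each embryo (points; IVP red, IVV blue) with the group mean (line) and SD (bars); 7 and 9 embryos in the ED, 6 and 8 in the EEM. LY6E separates IVP from IVV completely in the EEM, IRF9 lies higher in IVP with overlap, and MX1 and IFNAR1 overlap in both tissues.

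Of the target genes, LY6E (Entrez 510977) was the member with the clearest differences. It encodes a lipid-anchored surface protein of the LY6 family, which in the mouse serves as the receptor for the trophoblast fusion protein syncytin-A. In the EEM it measured 18.6, 38.0, 28.6, 35.0, 32.0 and 19.6 CPM in the 6 IVP embryos. In the 8 IVV embryos it ran from 2.76 to 16.6 CPM with a median of 6.14. All IVP embryos were thus above all IVV embryos, and the closest were IVP10 at 18.6 and VE4 at 16.6 CPM. Means were 28.6 ± 8.03 and 7.74 ± 5.14 CPM, a ratio of 3.70, and the log2 fold change was 1.89 (SE 0.34, adjusted p = 0.00123). Ranges without overlap were found in 0.897% of the genes tested in the EEM, and in 0.858% of those in the ED. Over the fits that left out single embryos, the adjusted p was at most 0.00906. Of 15 alternatives, 1 lost the call, with log2 XIST as a covariate (2.20, adjusted p = 0.0936).

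In the ED the direction was the reverse. LY6E had a lowest, median and highest value of 11.3, 27.7 and 54.7 CPM in IVP embryos and of 21.1, 50.2 and 72.9 CPM in IVV embryos. The ranges overlapped, although 2 of 7 IVP embryos lay under the lowest IVV value and 3 of 9 IVV embryos over the highest IVP value. Means were 28.9 ± 14.1 and 50.9 ± 18.1 CPM. The log2 fold change was -0.88 (SE 0.25, adjusted p = 0.0330), but the call was lost under 9 of the 15 alternatives, where the adjusted p reached 0.649, and with any of 9 embryos left out (highest adjusted p = 0.0818, without IVPF13). LY6E was the 1 member called of 4 tested in the ED, where 6.34% of all genes tested were called, and LY6E and IRF9 were the 2 called of 4 tested in the EEM, where 3.81% were.

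Within an embryo, LY6E was higher in the ED than in the EEM in 8 of 8 IVV embryos, by a mean of 2.88 on the log2 scale (SD 0.73, lowest 1.84, highest 3.96), which is 7.34-fold. In the 5 IVP embryos the difference averaged 0.17 (SD 0.41, lowest -0.30, highest 0.57), and 3 of 5 were higher in the ED. The differences of IVV and IVP embryos did not overlap. This difference between the procedures was tested as the interaction of tissue and procedure with embryo as a block, which gave -2.75 (SE 0.32, adjusted p = 0.00017). Across all 13 embryos LY6E was higher in the ED (log2 fold change 1.86, SE 0.37, adjusted p = 0.000969). It was the 1 member called of 4 tested between the tissues, where 21.0% of all genes tested were called, and the 1 called of 5 tested for the interaction, where 1.02% were. The interaction passed the threshold in all 8 alternatives, with values from -2.84 to -2.58, and with each embryo left out (-2.90 to -2.56).

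**Figure D2:**
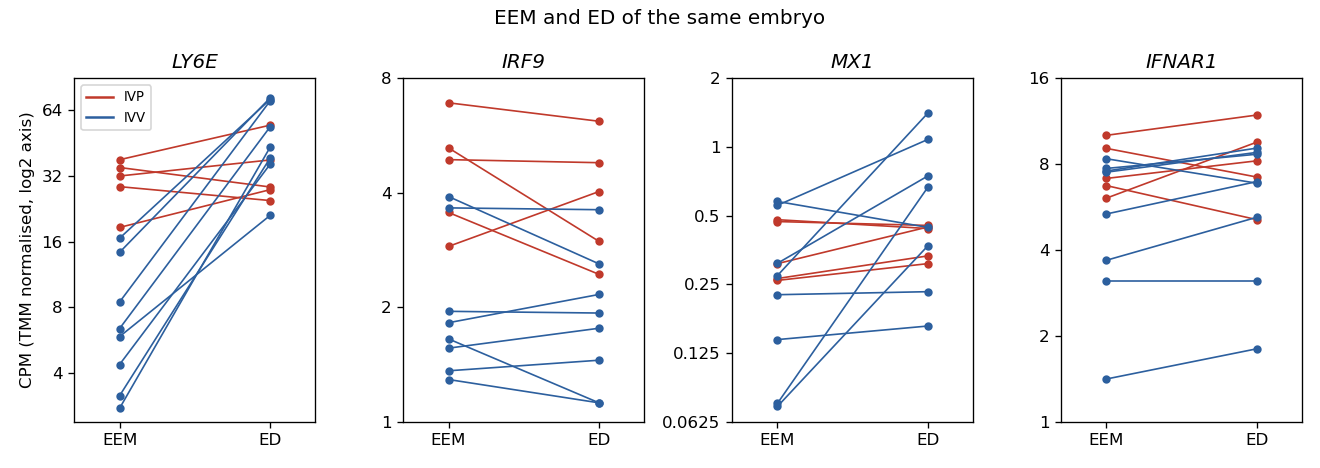
CPM (log2 axis) of the 4 countable members in the EEM and ED of the 13 embryos that gave both tissues, with 1 line per embryo (5 IVP red, 8 IVV blue). LY6E climbs from EEM to ED in all 8 IVV embryos and rises or falls by less in the IVP embryos, while IRF9 and IFNAR1 keep much of their order between the tissues.

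Cell type markers and XIST were set beside these LY6E values. Since pieces of tissue were sequenced in bulk, fewer cells of a type and less RNA per cell cannot be told apart. In the EEM, 10 summed hypoblast markers ran from 1620 to 3070 CPM in IVP and from 816 to 2560 CPM in IVV embryos, most of it from APOA1 and COL4A1. None of these markers was called higher in IVP, and TTR, called lower, was at the floor in IVP embryos with 0 to 1 counts and passed the filter only through the IVV embryos, which had 0 to 224. With the hypoblast sum as a covariate, LY6E in the EEM was 1.68 (adjusted p = 0.0148). The 10 epiblast markers summed to 113 to 217 CPM in the EEM of IVP embryos and 113 to 147 CPM in that of IVV embryos, with NANOG, SOX2 and FGF4 at the floor in the former and SOX2 and FGF4 in the latter. Adding them left LY6E at 1.90 (adjusted p = 0.0027). In the ED the epiblast sum was 150 to 339 CPM in IVP and 170 to 597 CPM in IVV embryos, and POU5F1, which maintains pluripotency, was itself lower in IVP (log2 fold change -1.72, SE 0.36, adjusted p = 0.00480). The list was mixed, since PRDM14 was also lower (-1.95, adjusted p = 0.00411) while DPPA4 was higher, at 6.27 ± 2.37 against 2.87 ± 0.89 CPM (1.00, adjusted p = 0.0248). With the epiblast sum as a covariate the difference in LY6E in the ED was -0.77 and lost its call (adjusted p = 0.144). SOX2 was at the floor in every group. POU5F1 was higher in the ED than in the EEM (5.40, SE 0.36, adjusted p = 1.22e-09), and the 11 trophoblast markers reached 11400 to 65400 CPM in the ED as well.

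LY6E is also known from leukocytes. The 14 leukocyte markers summed to 5.48 to 11.8 CPM in the EEM of IVP embryos and to 2.42 to 9.23 CPM in that of IVV embryos, and to 7.23 to 14.6 CPM in the ED. In the EEM, PTPRC, CD4, MS4A1 and ITGAM were at the floor in every library, and others of the list were not, such as CD14 at 0.754 to 3.48 CPM in IVP and 0.251 to 1.60 CPM in IVV embryos. In the ED, PTPRC was at 0 in IVP embryos and reached 0.983 CPM in IVV embryos, with a median of 0.127. Of the list, CD8A was higher in IVP embryos in the ED (log2 fold change 1.47, adjusted p = 0.00795) and in the EEM (1.49, adjusted p = 0.00444). ITGB2 was lower in the ED of IVP embryos (-1.73, adjusted p = 0.0184) and was, beside LY6E, called for the interaction (-2.64, SE 0.62, adjusted p = 0.0450). The part of these cell populations in the LY6E differences was not tested beyond the covariates given.

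XIST, the RNA that coats the inactive X chromosome of female cells, split the embryos largely along the procedure. It stayed under 1 CPM in all 13 IVP libraries and in both tissues of the IVV embryos VE3 and VE5, and was at least 45.1 CPM in the other IVV libraries. The labels give no sex, so a part of sex in the differences cannot be told apart from the procedure. This limit holds for each call between IVP and IVV, those of the listed genes included. In those 2 IVV embryos LY6E was 4.38 and 6.40 CPM in the EEM, below all IVP embryos, and 36.2 and 53.7 CPM in the ED. IRF9 was 1.36 and 1.65 CPM in their EEM, also below all IVP embryos. With only the libraries under 1 CPM of XIST, an alternative chosen after seeing the data, LY6E in the EEM was 2.36 (adjusted p = 0.0191) and IRF9 was 1.51 (adjusted p = 0.162). With log2 XIST as a covariate across all EEM libraries, neither gene was called, as given above. Only VE3 and VE5 could be set against IVP embryos at low XIST.

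MX1 (Entrez 280872), a dynamin-like GTPase that blocks virus replication, was low in each group, with 4 to 92 counts per library. In the ED the lowest, median and highest values were 0.128, 0.333 and 0.453 CPM in IVP and 0.164, 0.444 and 1.41 CPM in IVV embryos. In the EEM they were 0.260, 0.303 and 0.480 CPM in IVP and 0.0728, 0.249 and 0.577 CPM in IVV embryos. The groups overlapped in both tissues, and the IVV embryos spread more widely than the IVP embryos. MX1 did not pass the test in the ED (log2 fold change -0.84, SE 0.44, adjusted p = 0.327), in the EEM (0.62, SE 0.38, adjusted p = 0.557) or between tissues (0.79, SE 0.31, adjusted p = 0.0716). These values moved with the setting, in the ED to -0.43 without VE5 and to -0.29 with the epiblast covariate, and in the EEM to 0.083 with XIST as a covariate and to 0.32 without a surrogate variable. Between tissues MX1 did pass when only library totals were used for scaling (0.98, adjusted p = 0.0361) and with counts divided by 2 (adjusted p = 0.0460). The interaction was -1.05 (SE 0.61, adjusted p = 0.606).

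A further 4 targets were at or near the floor and were removed by the filter on low counts from the tests between procedures and between tissues. MX2 (Entrez 280873), the paralogue of MX1, had 2 to 12 counts in the ED of IVP embryos, 5 to 25 in the ED of IVV embryos, 0 to 9 in the EEM of IVP embryos and 0 to 5 in the EEM of IVV embryos. ISG15 (Entrez 281871), a ubiquitin-like protein that is attached to other proteins, had 0 to 14, 0 to 21, 0 to 6 and 0 to 14 counts in the same order of groups. IFI6 (Entrez 512913), a small membrane protein of interferon-treated cells, had 0 to 9, 0 to 14, 0 to 4 and 0 to 18 counts. RSAD2 (Entrez 506415), the antiviral enzyme viperin, had 0 to 13, 0 to 5, 2 to 4 and 0 to 7 counts. Within each tissue the counts of IVP and IVV embryos overlapped for these 4 genes. In IVV embryos MX2 had 5 counts or more in each ED library and 5 or fewer in each EEM library. ISG15 was at 0 in 8 of the 30 libraries, MX2 in 5, IFI6 in 12 and RSAD2 in 11.

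When no filter was applied, none of these 4 genes and not IFNAR2 passed the test between IVP and IVV in either tissue, with adjusted p from 0.197 (IFNAR2 in the EEM) to 0.993 (IFNAR2 in the ED). MX2 then was called as higher in the ED than in the EEM (log2 fold change 2.10, SE 0.68, adjusted p = 0.0315). In the EEM it was at 3 counts or fewer in 4 of 6 IVP and 5 of 8 IVV libraries, so that its call and fold change are uncertain. What size of difference could be missed at such low counts was not tested. Of the 9 members, 4 (44.4%) had enough counts to be tested in each tissue, beside 69.3% of 20847 protein-coding genes in the ED and 64.7% in the EEM.

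**Figure D3:**
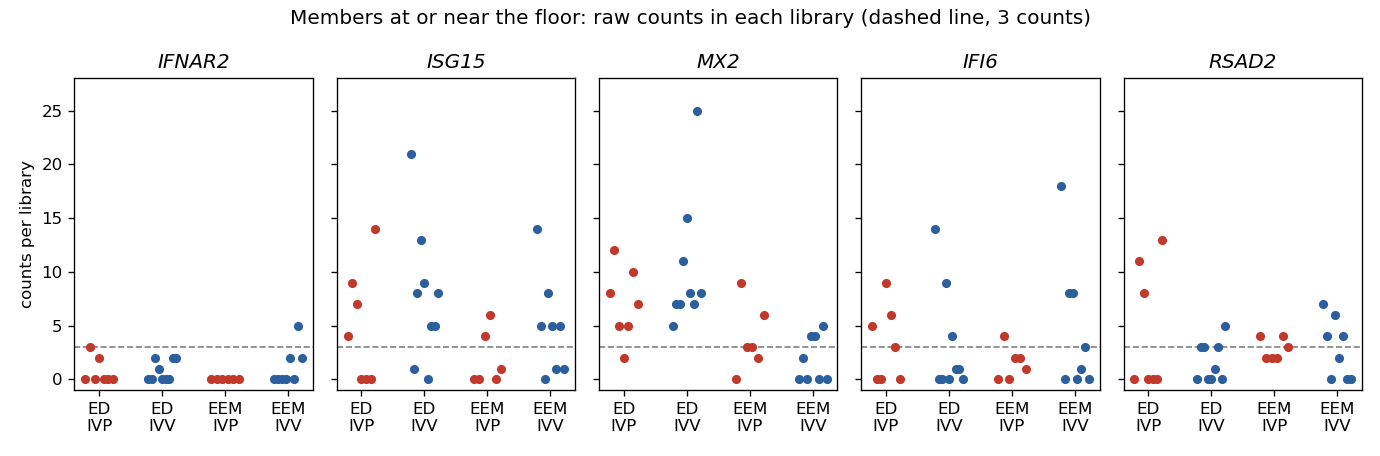
Raw counts per library (linear axis) of IFNAR2, ISG15, MX2, IFI6 and RSAD2 in each embryo (points; IVP red, IVV blue), with a dashed line at the floor of 3 counts. No library exceeds 25 counts, IFNAR2 exceeds the floor in 1 library, and the groups overlap.

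A wider set of interferon-stimulated genes was also followed. Of 64 further targets listed, 58 were matched by symbol, 9 of these were at the floor in each of the 30 libraries, and 36 were tested in the ED and 33 in the EEM. In the ED, 1 was higher and 4 were lower in IVP embryos (5 of 36, where 6.34% of all genes tested were called), with a median log2 fold change of -0.088 over the 36 genes beside -0.0078 over all genes tested. IFITM1, which hinders virus entry and is also known from germ cells, fell from 8.37 ± 3.84 CPM in IVV to 0.688 ± 0.419 CPM in IVP embryos (log2 fold change -3.63, SE 0.52, adjusted p = 1.19e-04). PARP9 (-1.73, adjusted p = 0.0188) and DTX3L (-1.64, adjusted p = 0.0224), whose products form a complex, and PSMB8, an immunoproteasome subunit (-1.25, adjusted p = 0.0327), were the others that were lower. PARP9 had 5 to 19 counts in IVP libraries, with a median of 9, and 10 to 61 in IVV libraries, so that it passed the filter of 10 counts through the IVV group and its call and fold change are uncertain. LGALS9, a galectin, was higher (1.10, SE 0.30, adjusted p = 0.0272).

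Of 33 targets with enough counts in the EEM, 2 were higher in IVP embryos and 0 were lower (3.81% of all genes tested were called), with a median log2 fold change of 0.16, where that of all genes tested was 0.0038. SLFN11, a nuclear protein that restricts viruses, was 66.3 ± 22.3 CPM in IVP and 34.6 ± 16.9 CPM in IVV embryos (log2 fold change 0.99, SE 0.26, adjusted p = 0.0256). B2M, the light chain of MHC class I, was 65.5 ± 20.8 CPM in IVP and 34.0 ± 12.2 CPM in IVV embryos (0.91, SE 0.25, adjusted p = 0.0403). No target gene of this set passed the test of the interaction, of 38 tested, where 1.02% of all genes were called.

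Between the tissues the direction of calls depended on the scaling. Of all genes called, 61.1% were higher in the ED with TMM and 92.8% with library totals, with which the median log2 fold change of all genes tested moved from -0.085 to 0.10. With TMM, 8 of 33 targets were higher in the ED and 2, TAP1 and HERC5, were lower. With library totals the 8 and TAP1 (-0.36, adjusted p = 0.0157) were still called in that direction, and HERC5 was not. The 6 with the smallest p were PARP14 (log2 fold change 2.83, adjusted p = 1.85e-06), IFITM1 (3.56, adjusted p = 4.62e-05), PSMB8 (1.90, adjusted p = 0.000554), LGALS3BP (0.73, adjusted p = 0.000753) and GBP4 (0.67, adjusted p = 0.00274), which were higher in the ED, and TAP1 (-0.54, adjusted p = 0.00234), the peptide transporter of the MHC class I pathway, which was lower. The share called, 10 of 33, stands beside 21.0% of all genes tested between the tissues.

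Among 10 interferon regulatory factor genes, IRF5, a factor that drives inflammatory genes, was higher in IVP embryos in both tissues. It averaged 56.8 ± 29.9 against 31.6 ± 7.19 CPM in the ED (log2 fold change 0.78, SE 0.22, adjusted p = 0.0363) and 70.7 ± 25.96 against 39.8 ± 12.6 CPM in the EEM (0.87, SE 0.24, adjusted p = 0.0424). The ED call was lost with library totals (0.54, adjusted p = 0.158). IRF4, which acts in lymphocytes, was lower in the EEM of IVP embryos, at 0.0604 ± 0.0389 against 0.457 ± 0.362 CPM (-2.87, SE 0.58, adjusted p = 0.00350). It had 0 to 7 counts in those IVP libraries, 5 of 6 of them at or below 3, and 6 to 60 in IVV. It thus passed the filter only through the IVV group, and its call and fold change are uncertain. From the same list, IRF2 (1.93, adjusted p = 0.000554) and IRF8 (2.07, adjusted p = 3.15e-05), were higher in the ED than in the EEM. USP18, the protease that removes ISG15 from proteins and restrains the receptor, was higher in the ED of IVP embryos at 17.3 ± 5.39 against 9.88 ± 3.02 CPM (0.73, SE 0.22, adjusted p = 0.0487). It was the 1 gene called in the ED of 6 tested for ISG15 conjugation and of 14 negative regulators, beside 6.34% of all genes, and 0 of either list were called in the EEM, beside 3.81%. Between the tissues HERC5 (-0.40, adjusted p = 0.0441) and ARIH1 (-0.42, adjusted p = 0.0243), which encode ubiquitin-type ligases, and the phosphatase PTPN1 (-0.37, adjusted p = 0.00915) were lower in the ED with TMM, and none of these 3 was called with library totals (adjusted p = 0.319, 0.310 and 0.272). Of the genes of nucleic acid sensing, 0 of 14 tested were called between procedures in the ED and 0 of 12 in the EEM. Between the tissues 3 of 12 were called, beside 21.0% of all genes. DHX58, a regulator of RNA sensing, was higher in the ED (2.25, SE 0.30, adjusted p = 1.00e-05), and TICAM1 (-0.41, adjusted p = 0.0247) and TBK1 (-0.31, adjusted p = 0.0378), which relay signals from the sensors, were lower with TMM and were not called with library totals (adjusted p = 0.289 and 0.560).

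**Figure D4:**
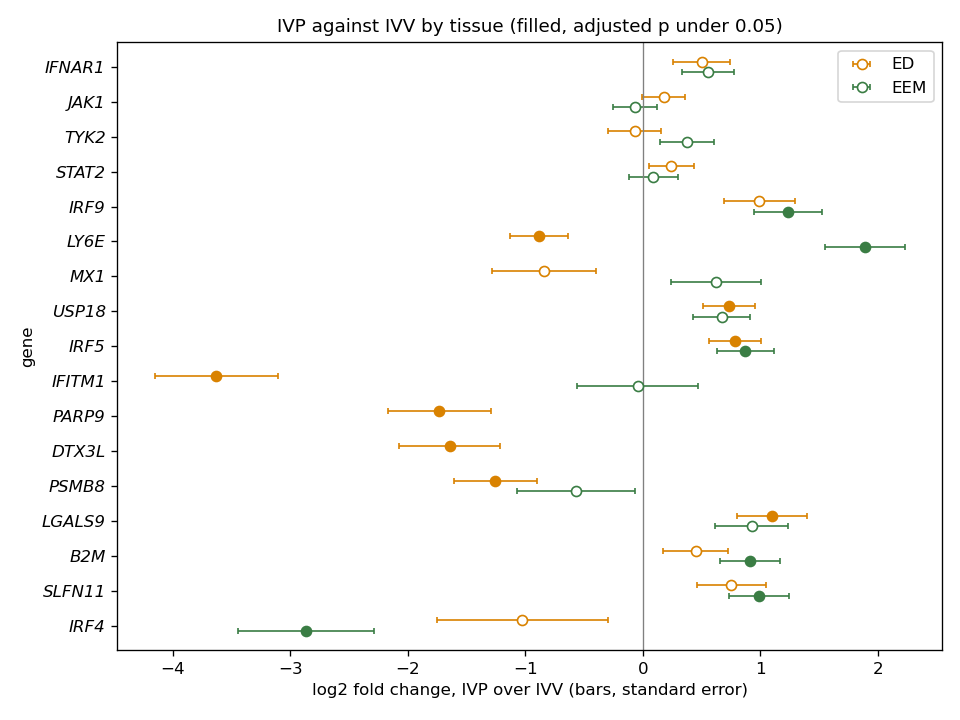
Log2 fold change of IVP over IVV (x axis; points, with the standard error as bars) in the ED and EEM for the 4 tested members, JAK1, TYK2, STAT2 and the listed interferon genes called in either tissue. Filled points had an adjusted p under 0.05 and open points did not; LY6E lies on opposite sides of 0 in the 2 tissues, and PARP9 and DTX3L were not tested in the EEM.

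Whether a member varied with the embryo rather than with the tissue was examined in the 13 embryos with both tissues, over 4 members with permutation tests of log2 CPM. IRF9 in the ED followed IRF9 in the EEM (Pearson r = 0.886, permutation p = 0.00014, adjusted p = 0.00056; Spearman rho = 0.890, permutation p = 0.00014). Without the 2 embryos farthest from the median r was 0.812 (permutation p = 0.00296), and in the 8 IVV embryos alone it was 0.861 (exact p = 0.00699, adjusted p = 0.0140), and 0.729 without the 2 farthest of these (exact p = 0.0639). For IFNAR1, r was 0.911 (permutation p = 0.00048, adjusted p = 0.00096) and rho 0.632 (permutation p = 0.0226, adjusted p = 0.0452). Without the 2 embryos farthest from the median r fell to 0.599 (permutation p = 0.0590). In the 8 IVV embryos alone it was 0.962 (exact p = 0.00233, adjusted p = 0.00933), and 0.818 without the 2 farthest of these (exact p = 0.131). For MX1, r was 0.267 (permutation p = 0.382, adjusted p = 0.509) and rho 0.456 (permutation p = 0.120). For LY6E the procedures formed separate clusters, and within the 8 IVV embryos r was 0.630 (exact p = 0.0863, adjusted p = 0.115) and rho 0.738 (exact p = 0.0458, adjusted p = 0.0917). Without the 2 farthest of these, r for LY6E was 0.870 (exact p = 0.0361, not adjusted).

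The members were also set against the ligand in the 14 EEM libraries. None of the 3 members other than LY6E was related to summed interferon tau past the threshold after adjustment. Pearson r was 0.011 for MX1 (permutation p = 0.967), 0.016 for IRF9 (permutation p = 0.960) and -0.333 for IFNAR1 (permutation p = 0.242, adjusted p = 0.967), for which rho was -0.556 (permutation p = 0.0428, adjusted p = 0.171). Since IRF9 differed between procedures in the EEM, it was also taken within each, where r was 0.226 in the 8 IVV embryos (exact p = 0.536) and 0.458 in the 6 IVP embryos (exact p = 0.350, rho = 0.657). For LY6E, whose groups did not overlap in the EEM, r was 0.764 in the 8 IVV embryos (exact p = 0.0345, adjusted p = 0.138, rho = 0.714) and -0.066 in the 6 IVP embryos (exact p = 0.883). Neither passed the threshold after adjustment over the 4 members.

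The genes whose pattern was most like that of the 7 members other than the receptor chains were ranked over all 30 libraries, after the mean of each group was taken off, by Pearson r with the mean of the members' standardised log2 CPM. From the highest, they were FAXDC2 (r = 0.845), RBFOX1 (0.843), NUDT8 (0.832), BCAS4 (0.827), PTMA (0.819), LTBR (0.802), MAP1LC3A (0.800), RPGRIP1 (0.797), DBNDD1 (0.793) and H3-3A (0.791). This is a description among 16675 genes, in which the points share libraries and in which 4 of the 7 members were at or near the floor.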

How the data were processed

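The authors filtered paired reads of unstranded poly(A)-selected libraries with SOAPnuke, aligned them to ARS-UCD1.3 with STAR 2.7.0b and obtained counts per Entrez gene with featureCounts (Subread 2.0.3). The deposited values are raw counts per library, without normalization, and all 30 columns were used. Symbols came from the RefSeq table of ARS-UCD2.0, which named 31630 of the 35092 IDs (99.5% of counts). That assembly is another one, so no positions are given. Of 209 list symbols, 12 had no match.

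Counts were analysed with edgeR 4.0.16 in R 4.3.3, with TMM, filterByExpr (minimum count 10), the quasi-likelihood test and Benjamini-Hochberg adjustment over all genes tested at 0.05. IVP and IVV were compared within each tissue with 1 surrogate variable from svaseq (sva 3.50.0), since the study controlled for morphology with sva. ED and EEM, and the interaction, were compared in the 26 libraries of 13 embryos with embryo as a block. This pairing comes from the embryo names in the labels; same-embryo deviations from group means correlated between -0.187 and 0.636, over 0.1 in 12 of 13 embryos. Log2 CPM used a prior count of 2. Correlations used 100000 permutations, or all of them for 8 or fewer embryos, in SciPy 1.17.1.

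Each member is reported, and from each interferon list at most 6 called genes per comparison by smallest p, with JAK1, TYK2 and STAT2. Cell type marker lists are given by their sums, with the genes called between procedures where the list stands beside a result. One interferon gene is not reported here and was left out of its list. The members and lists were chosen with earlier results of these data known. The alternatives were no or 2 surrogate variables, DESeq2 1.42.0, limma 3.58.1 voom, other scalings and filters, counts divided by 2, covariates, subsets of embryos, and each embryo left out in turn. The hypoblast, epiblast and XIST-low alternatives, and the IVP embryos alone, were chosen after seeing the data. Scripts were tested on simulated data. The labels give no sex, morphology or dam for an embryo.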

Additional observations from a re-analysis of the deposited data

Results flagged for a closer look

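The difference in LY6E between IVP and IVV embryos differed between the ED and the EEM, with an interaction of -2.75 on the log2 scale.

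Within groups of 6 to 9 libraries, 35 were examined for a single value far from the others, and 2 were found, where chance gives about 1 in 20. MX2 was highest in the ED of the IVV embryo VE5, at 0.384 CPM (25 counts). IFNAR2 was highest in the EEM of the IVV embryo VE4, at 0.0939 CPM (5 counts). Both genes were at or near the floor in most libraries.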

How the results depend on the processing

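Main counts of genes called were 998 in the ED, 561 in the EEM, 3124 between tissues and 172 for the interaction. The ED count was 659 with XIST as a covariate, 206 among XIST-low libraries, 474 with the epiblast covariate, 1512 with DESeq2, 1846 without a filter, 431 with at least 10 counts in every library, and 639 (without VE29) to 1160 with an embryo left out. The EEM count was 146 with XIST, 139 among XIST-low libraries, 1211 without a filter and 275 with at least 10 counts in every library. Between tissues 1909 were higher and 1215 lower in the ED, and 2663 and 206 with library totals. The count was 1553 without the replicate block and 1828 with at least 10 counts in every library. For the interaction it was 435 with DESeq2, 329 with voom, 356 without a filter, 11 with at least 10 counts in every library, and 101 (without VE29) to 211 with an embryo left out. Leaving out IVP10, IVPF14 or VE28 also moved it by over 1.5 times (109, 109 and 104). The block changed no call of a member.

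Members called in the ED numbered 1. They were 0 with no or 2 surrogate variables, XIST, the letter ending the title, embryos with both tissues, XIST-low libraries, the epiblast covariate, voom, or at least 10 counts in every library, 2 with DESeq2, its size factors or counts divided by 2, and 0 to 2 with an embryo left out. The LY6E call was lost without IVPF10, IVPF13, IVPF14, IVPF15, VE28, VE29, VE4, VE5 or VE6, and IRF9 gained one without IVP10, IVPF10, VE19 or VE4. Members called in the EEM numbered 2, and were 1 without a surrogate variable, among XIST-low libraries or with the hypoblast covariate, and 0 with XIST. Between tissues 1 member was called, and 2 with library totals, without a filter or with counts divided by 2. Of values that were not called, IFNAR1 in the EEM was -0.084 among XIST-low libraries, IRF9 between tissues was 0.052 with library totals, and IRF9 for the interaction was -0.273 to 0.0029 with an embryo left out (the latter without IVPF13). LY6E correlated between tissues at -0.046 over 13 embryos and at 0.630 in IVV alone, and with interferon tau at -0.029 over 14 and at 0.764 in IVV alone. With library totals, r with interferon tau was -0.165 for MX1 and -0.064 for IRF9. The causes were not tested. Depth limits IFNAR2, ISG15, MX2, IFI6 and RSAD2, which were near the floor.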

Other observations

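Among the IVV embryos, VE19 and VE28 stood at the ends of several members' ranges in both tissues, a pattern picked after the values were seen and not tested. IRF9 was highest in these embryos, at 3.61 and 2.60 CPM in the ED and 3.65 and 3.91 CPM in the EEM. ISG15 had its highest counts there, with 21 and 13 in the ED and 14 and 8 in the EEM. IFI6 had 14 and 9 counts in the ED and 18 and 8 in the EEM, where VE26 also had 8. IFNAR1 was at its lowest in the same embryos, at 1.80 and 3.12 CPM in the ED and 1.41 and 3.12 CPM in the EEM. MX1 was also highest in their EEM, at 0.577 and 0.555 CPM, while in the ED it was highest in VE5 at 1.41 CPM. LY6E did not share this pattern, since VE19 had the lowest value in the EEM, 2.76 CPM, and VE28 had 8.47 CPM, within the range of the other IVV embryos. MX2 in VE19 did not share it either, with 5 counts in the ED and 0 in the EEM. RSAD2 had 7 and 6 counts in the EEM of VE19 and VE28, and 0 in the ED of both. JAK1, not a member, was lowest in these embryos, at 16.1 and 19.9 CPM in the ED and 16.4 and 18.3 CPM in the EEM.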
